A study of Mus musculus with 4 samples.

Results

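The 10 genes described here are members of the platelet-derived growth factor (PDGF) and fibroblast growth factor (FGF) pathways, namely the PDGF receptors Pdgfra and Pdgfrb, the PDGF ligands Pdgfa and Pdgfc, the FGF receptors Fgfr1 and Fgfr2, the FGF ligands Fgf2, Fgf7 and Fgf10, and the feedback inhibitor Spry2. Open chromatin was profiled by ATAC-Seq (Tn5 transposase places sequencing adapters into accessible DNA) in mouse embryonic fibroblasts immortalized with SV40 T antigen. A gene was given every accessible site that overlapped its body or lay within 30 kb of its transcription start, which selected 218 of the 82325 sites of the whole data set. Of these, 81 sites lay at the loci of the protein-coding transcripts. The remaining 137 sites lay in a stretch that belongs to Fgfr2 through 1 annotated transcript only, and they are described separately at the end.

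There were 4 libraries, 2 from lines with intact HAT1 (genotype HAT1 WT, Hat1+/+) and 2 from lines without it (HAT1 KO, Hat1-/-). HAT1 acetylates histone H4 soon after its synthesis. All 4 lines carried the C57bl6 strain background and SV40 T antigen, were untreated and grew in the same serum-containing medium, and each library came from 1 line, so that the genotype effect and the history of a line cannot be told apart with 2 lines per genotype. The question was whether loss of HAT1 changed accessibility at these genes.

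PDGF and FGF ligands are secreted proteins that bind receptor tyrosine kinases on the cell surface and signal through the Ras-MAP kinase and PI3 kinase routes. Both families are mitogens of fibroblasts: PDGF receptors mark mesenchymal cells, and Fgf2 acts on a wide range of cells. Fgf7 and Fgf10 are made by mesenchyme and act mainly on epithelium through a splice form of Fgfr2, and Spry2 is induced by this signalling and dampens it.

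Values are normalised counts per site, scaled by the authors with a factor per library. The scaled totals over all sites were not equal, at 8008069 and 8150872 in WT and 8427919 and 8516263 in KO. The library medians were 53 and 52 in WT and 52 and 51 in KO. Estimated from the steps of the scaled values, the libraries held between about 5650000 and 11410000 reads in sites, and a value of 100 stood for about 118 and 140 reads in the WT libraries but 93 and 66 in the KO libraries, so KO replicate 2 was the least precise. Start sites of 10 of 10 fibroblast marker genes were accessible (summed values 3361 and 3971 in WT, 3869 and 4191 in KO), against 10 of 19 genes of other cell types, with none of the 3 muscle or 2 germ and stem cell genes. Marker genes of blood, endothelial, epithelial and neural cells had start sites in part (2 of 4, 3 of 3, 3 of 4 and 2 of 3), with sums per list between 112 and 354 in any library. These lists are shorter than the fibroblast list, so the sums are not on a common scale. The Hat1 start site itself held 390 and 384 in WT and 438 and 368 in KO. An accessible start site is no test of a deletion further into the gene.

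The central 300 bases of 7 sites that the results turn on are given here from the mouse genome (mm10, plus strand), with matches to the AP-1 motif TGANTCA or the TEAD motif GGAATG, on either strand, in capitals. The first pair belongs to Pdgfc, the locus with the most sites higher in KO: a site 4.2 kb upstream of the start (chr3:81032055-81032354), close to the start of the noncoding gene Gm42476, and an intronic site 127.8 kb downstream of the start (chr3:81164060-81164359).
Pdgfc -4.2 kb: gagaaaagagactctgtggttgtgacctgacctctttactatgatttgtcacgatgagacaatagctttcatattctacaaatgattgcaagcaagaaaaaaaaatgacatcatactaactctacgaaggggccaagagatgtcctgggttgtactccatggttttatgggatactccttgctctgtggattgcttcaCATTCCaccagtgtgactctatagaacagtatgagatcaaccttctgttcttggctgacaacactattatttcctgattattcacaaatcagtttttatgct
Pdgfc +127.8 kb: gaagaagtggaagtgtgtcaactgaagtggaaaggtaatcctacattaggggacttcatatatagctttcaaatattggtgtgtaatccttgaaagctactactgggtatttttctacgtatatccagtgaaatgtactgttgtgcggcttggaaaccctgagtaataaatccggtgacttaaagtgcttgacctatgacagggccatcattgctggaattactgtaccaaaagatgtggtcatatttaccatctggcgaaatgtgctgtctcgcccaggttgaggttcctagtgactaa

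The next pair are Fgf10 intronic sites, 58.6 kb (chr13:118773168-118773467) and 31.9 kb (chr13:118746473-118746772) downstream of the start; the first had the lowest log2 fold change at the coding loci and the second was strong in 1 KO line.
Fgf10 +58.6 kb: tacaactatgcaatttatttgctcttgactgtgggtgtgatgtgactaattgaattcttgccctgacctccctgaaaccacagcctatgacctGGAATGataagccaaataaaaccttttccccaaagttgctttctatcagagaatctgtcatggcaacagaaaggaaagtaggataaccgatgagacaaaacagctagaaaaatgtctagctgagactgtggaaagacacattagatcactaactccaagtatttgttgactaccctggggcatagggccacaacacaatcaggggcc
Fgf10 +31.9 kb: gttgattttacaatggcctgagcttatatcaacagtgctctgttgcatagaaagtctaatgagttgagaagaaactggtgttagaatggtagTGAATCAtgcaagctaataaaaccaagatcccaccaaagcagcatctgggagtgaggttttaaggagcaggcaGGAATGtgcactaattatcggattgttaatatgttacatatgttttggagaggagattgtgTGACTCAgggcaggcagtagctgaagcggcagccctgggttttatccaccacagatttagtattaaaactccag

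The last set holds an intronic Fgf2 site 12.6 kb from the start (chr3:37360754-37361053), which had the highest mean value among the sites over 1 kb from a start, an intronic Pdgfa site 17.4 kb from the start (chr5:138979864-138980163), where both KO lines were lower, and the Spry2 promoter site (chr14:105897254-105897553), the most accessible promoter per kb.
Fgf2 +12.6 kb: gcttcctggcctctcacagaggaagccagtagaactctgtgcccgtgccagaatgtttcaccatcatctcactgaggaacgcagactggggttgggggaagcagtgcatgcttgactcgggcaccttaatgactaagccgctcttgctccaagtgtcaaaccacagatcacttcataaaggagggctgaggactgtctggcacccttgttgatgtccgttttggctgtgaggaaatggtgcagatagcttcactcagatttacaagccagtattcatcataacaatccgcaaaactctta
Pdgfa +17.4 kb: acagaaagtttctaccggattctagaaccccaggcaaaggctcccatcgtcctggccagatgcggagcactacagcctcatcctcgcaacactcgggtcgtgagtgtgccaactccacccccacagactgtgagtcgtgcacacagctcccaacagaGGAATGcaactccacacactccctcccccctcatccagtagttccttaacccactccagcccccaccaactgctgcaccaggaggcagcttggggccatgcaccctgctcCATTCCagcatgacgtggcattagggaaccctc
Spry2 -0.6 kb: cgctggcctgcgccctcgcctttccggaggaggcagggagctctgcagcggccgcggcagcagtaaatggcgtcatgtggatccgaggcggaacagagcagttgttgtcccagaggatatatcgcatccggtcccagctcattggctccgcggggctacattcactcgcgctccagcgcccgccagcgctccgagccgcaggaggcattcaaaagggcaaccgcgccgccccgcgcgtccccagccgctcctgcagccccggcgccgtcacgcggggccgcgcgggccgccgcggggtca

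The 81 sites at the coding loci comprised 16 promoter sites (within 1 kb of the start of a coding transcript), 19 upstream, 39 intronic, 5 exonic and 2 downstream sites. Their values were higher than those of most sites, with a median of the mean values of 83.5 against 52 over all sites (median lengths 483 and 440 bp), and 51 of 81 (63.0%) lay at or above that overall median. Pdgfc had 15 sites, Fgfr2 12, Fgf2 10, Pdgfa 9, Pdgfrb, Fgfr1, Fgf7 and Fgf10 7 each, Spry2 4 and Pdgfra 3. The AP-1 motif was present in 21 of 81 sites (25.9%, against 37.7% of all sites). None of the 16 promoter sites held it, and 21 of 65 other sites did (32.3%). Over all sites, 15.5% of promoter sites and 45.3% of other sites held it. There a promoter site lay within 1 kb of the start of any annotated transcript. By that wider rule 22 of the 81 sites would be promoter sites, 6 of them among the 65. The TEAD motif was found in 22 sites (27.2%, against 24.7%), and the ETS motif CCGGAAGT in 1 (1.23%, against 1.28%). Such a match is a description of the letters only.

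Each of the 10 genes had an accessible site within 1 kb of the start of a coding transcript in all 4 libraries. At Pdgfra no site lay within 1 kb of the record start. The Pdgfra promoter site taken here lay 4.5 kb into the gene, close to the start of Gm42803. That of Pdgfa lay 2.5 kb into the gene, within 1 kb of the start of 6330403L08Rik. Those of Fgf2 and Fgf10 lay within 1 kb of the starts of Fgf2os and Gm16263. For each gene, the promoter site with the highest mean value, before any division by length, was taken. That value was then divided by the length of the site. Per kb, these sites ranked Spry2 (514 ± 93.0, SD over the 4 libraries), Fgfr1 (343 ± 28.9), Pdgfrb (309 ± 13.4), Fgf7 (284 ± 77.4), Fgfr2 (281 ± 36.2), Pdgfa (264 ± 27.6), Pdgfc (263 ± 54.4), Pdgfra (197 ± 30.5), Fgf2 (136 ± 15.98) and Fgf10 (100 ± 9.43). The 4 values of Spry2 lay above all 4 of Fgfr1, those of Pdgfra above those of Fgf2, and those of Fgf2 above those of Fgf10. All other neighbours in this order overlapped. The order depends on the site taken: the 2 other, shorter promoter sites of Pdgfa had 335 (1.3 kb) and 315 (-0.3 kb) per kb, which would place this ligand between Fgfr1 and Pdgfrb, and the other Pdgfra promoter site had 228. Spry2 at the top and Fgf2 and Fgf10 at the bottom did not depend on this choice.

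**Figure D1:**
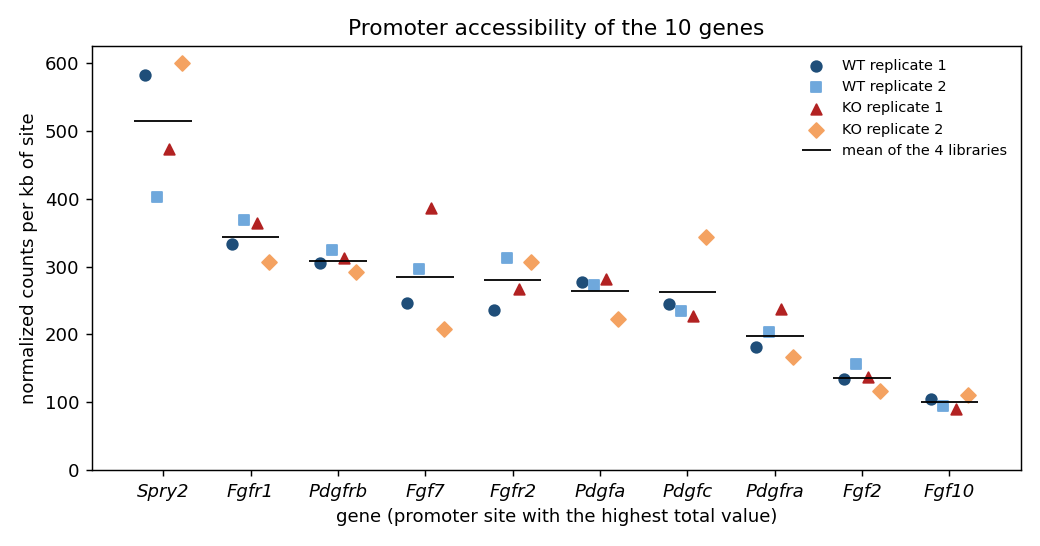
Normalized counts per kb at the promoter site with the highest total value of each gene (vertical axis), with 1 point per library and a line at the mean of the 4 libraries; genes are ordered by that mean. Spry2 (514) stands above the rest, and Fgf2 (136) and Fgf10 (100) lie lowest, with WT and KO points intermixed.

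In 4 of the 5 ligand genes a site away from the promoter held the highest value of the locus. At Fgf2, the +12.6 kb site held 353 and 438 in WT and 382 and 397 in KO, against 100 and 116 in WT and 102 and 87 in KO at the promoter. At Fgf7, a site 3.1 kb upstream held 274 and 307 in WT and 342 and 281 in KO, against 114 and 137 in WT and 179 and 96 in KO at the promoter. At Pdgfc, the +127.8 kb site held 276 and 281 in WT and 336 and 349 in KO. The Fgf2 and Fgf7 values of the 2 genotypes overlapped, and those of Pdgfc did not. At Fgf10, an intronic site at 22.1 kb held 93 and 114 in WT and 99 and 150 in KO, against 88 and 79 in WT and 75 and 92 in KO at the promoter, with overlap at both.

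Loss of HAT1 was accompanied by no called change at any of these genes. A call required p under 0.01 by limma, without adjustment, together with a change of 1 or more on the log2 scale in either direction. None of the 218 sites was called lower (over all sites 0.302% were) or higher (0.0705%; 0.373% in either direction). No site of the data set reached an adjusted p under 0.05 by limma with Benjamini-Hochberg adjustment. At an unadjusted p under 0.05, 1 of the 81 sites passed, higher in KO at Pdgfc, and 0 were lower (over all sites 1.54% higher and 1.59% lower). Of the 218, 5 passed lower and 3 higher. Both KO values lay below both WT values at 36 of the 218 (16.5%, against 14.3% of all sites) and above at 23 (10.6%, against 14.6%).

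The differences at the 81 sites were small. The median log2 fold change, KO against WT, was 0.07 against 0.01 over all sites, and the range was -1.13 to 1.08. In 71 of 81 sites (87.7%, against 76.3% of all sites) the absolute log2 fold change was under 0.5, and in 2 (2.47%, against 6.42%) it was at least 1. Both KO values lay above both WT values at 11 sites (13.6%, against 14.6% of all sites) and below at 7 (8.64%, against 14.3%). Between single libraries, the median absolute log2 difference was 0.41 for the KO lines and 0.26 for the WT lines (0.43 and 0.34 over all sites). An exact permutation test of 2 against 2 libraries cannot give a two-sided p under 0.33, so no single value could pass by that test.

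**Figure D2:**
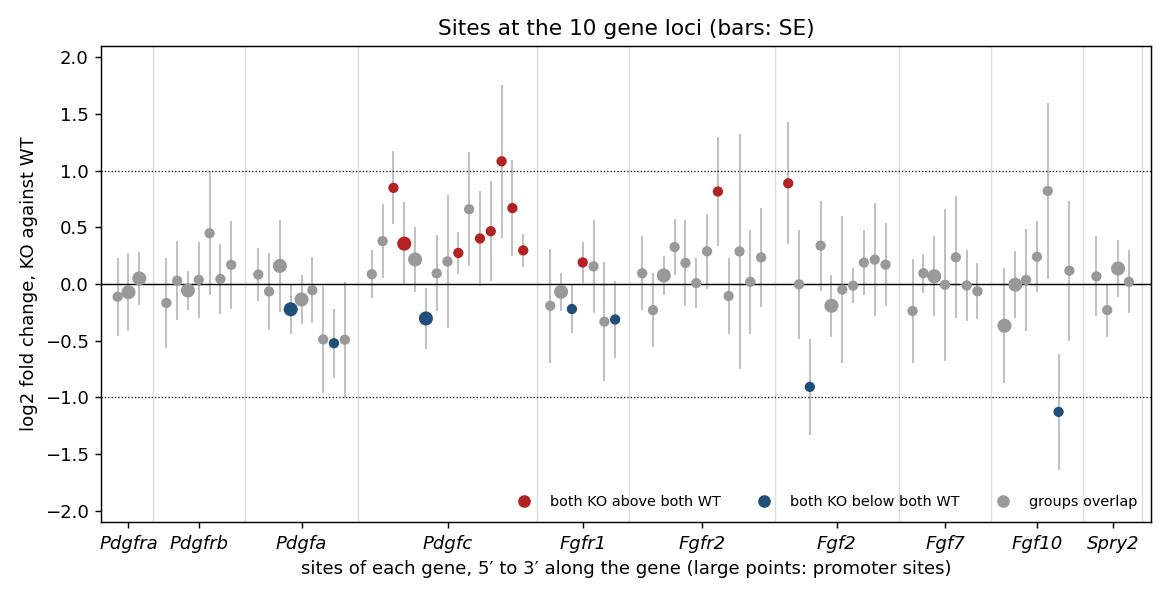
Log2 fold change, KO against WT, with its SE (vertical axis) for each of the 81 sites, ordered 5′ to 3′ within each gene; colours mark sites whose genotypes do not overlap, large points are promoter sites, and dotted lines mark a log2 fold change of 1 in either direction. Of the 11 sites with both KO values above both WT values, 8 are at Pdgfc, and only 2 sites lie beyond the dotted lines.

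Among the receptors, the summed accessibility of each locus differed little between genotypes. Pdgfra, the receptor that marks many embryonic mesenchymal cells, summed to 340 and 395 in WT and 438 and 303 in KO (fold 0.994, 95% interval 0.693 to 1.43). The 2 KO values lay on either side of both WT values. Pdgfrb, the receptor of pericytes and fibroblasts, summed to 668 ± 35.4 in WT and 692 ± 73.5 in KO (SD, n = 2 each), with overlapping values (fold 1.03, 0.829 to 1.29).

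Fgfr1, the main FGF receptor of fibroblasts, summed to 909 and 954 in WT and 940 and 878 in KO (fold 0.976, 0.813 to 1.17). Its promoter held 302 and 334 in WT and 330 and 278 in KO, again overlapping. Of its 7 sites, 5 had a log2 fold change below 0, with a median of -0.19; both KO values were lower at 2 and higher at 1. The lower pair were an intronic site at 2.9 kb (197 and 195 in WT, 186 and 152 in KO) and an exonic site at 56.4 kb (52 and 56 in WT, 48 and 39 in KO). The higher one, the strongest site outside the promoter, 18.3 kb into the gene, held 224 and 277 in WT and 288 and 281 in KO. Its log2 fold change was 0.19 ± 0.18 (SE, n = 2 per genotype), and 0.0383 without WT replicate 1 and 0.34 without WT replicate 2.

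At the coding locus of Fgfr2, the sums were 1270 and 1560 in WT and 1444 and 1625 in KO (fold 1.09, 0.867 to 1.37). The promoter of this receptor held 362 and 481 in WT and 411 and 471 in KO. Among its sites at or above the overall median, the one with the highest log2 fold change, 3.3 kb into the gene and overlapping an exon, held 195 and 264 in WT and 240 and 338 in KO. Both Fgfr2 sites overlapped between genotypes. A weak intronic site 89.0 kb into the gene held 45 and 6 in WT and 11 and 39 in KO, so that 1 line of each genotype was high.

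Among the ligands, Pdgfc had 8 of the 11 sites with both KO values above both WT values. Pdgfc encodes the PDGF-C ligand, which is secreted in a latent form and activates Pdgfra. Of its 15 sites, 14 had a log2 fold change above 0, with a median of 0.36. Both KO values exceeded both WT values at 8 sites (53.3%, against 14.6% of all sites) and fell below them at 1. The summed locus held 1475 and 1716 in WT and 1827 and 2151 in KO, the only 1 of the 10 genes whose genotypes did not overlap. How many of all genes had sums without overlap was not counted. Over all sites, 28.8% had no overlap, in either direction. The log2 fold change of the sum was 0.32 ± 0.13 (SE, n = 2 per genotype), a fold of 1.25 with a 95% interval of 0.9997 to 1.55. By limma over genes, its unadjusted p was 0.0502 and its Benjamini-Hochberg adjusted p was 0.908, so the difference did not pass the test. The neighbouring sites share their libraries and are not independent.

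The Pdgfc site 4.2 kb upstream, printed above, held 96 and 137 in WT and 164 and 262 in KO. Both KO lines were higher, with KO replicate 2, the shallowest library, highest. Its log2 fold change was 0.85 ± 0.32 (SE), with a limma p of 0.0368 unadjusted. Without KO replicate 2 the log2 fold change was 0.51 and the unadjusted limma p 0.228, and without WT replicate 1 they were 0.59 and 0.236.

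The strongest Pdgfc site, at +127.8 kb, had closely matching pairs, 276 and 281 in WT and 336 and 349 in KO, a log2 fold change of 0.30 ± 0.15 (SE). The intronic site at 22.3 kb held 227 and 240 in WT and 255 and 313 in KO. The site at 100.7 kb had the highest log2 fold change at the coding loci (1.08 ± 0.68, SE), but at low values of 7 and 17 in WT and 33 and 18 in KO. At the Pdgfc promoter itself the main site held 122 and 117 in WT and 113 and 171 in KO, and the neighbouring site 1.1 kb into the gene, 116 and 102 in WT and 90 and 86 in KO, was the one with both KO values lower. Of the 8 sites with both KO values higher, 6 were intronic, 1 was upstream and 1, a weak site with 39 and 39 in WT and 60 and 42 in KO, was at the promoter.

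**Figure D3:**
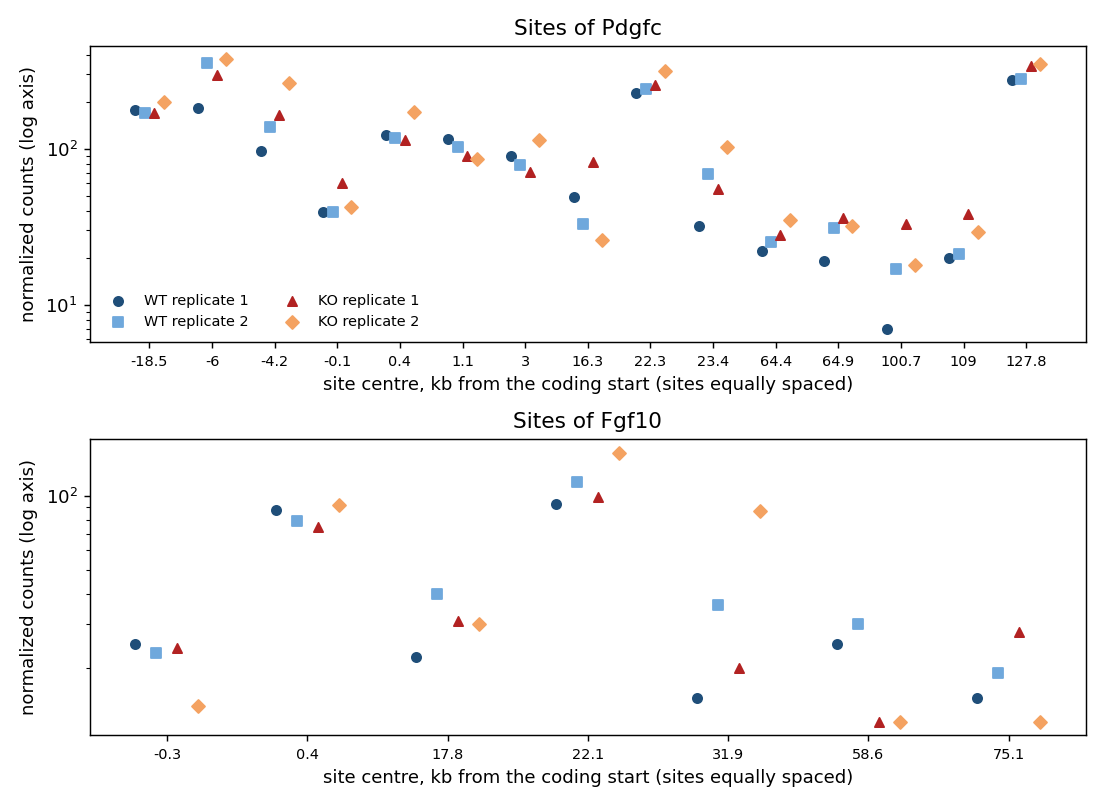
Normalized counts on a log axis at each site of Pdgfc (top) and Fgf10 (bottom), with 1 point per library; sites are equally spaced and labelled by their distance in kb from the coding start. At Pdgfc both KO points lie above both WT points at 8 of 15 sites, and at Fgf10 this is the case at none.

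Pdgfa encodes the PDGF-A ligand of Pdgfra. Its sums were 962 and 1053 in WT and 1063 and 799 in KO (fold 0.916, 0.703 to 1.19), and 7 of its 9 sites had a log2 fold change below 0. The site at 17.4 kb, printed above, held 81 and 95 in WT and 66 and 56 in KO; both KO values were lower, by a log2 fold change of -0.52 ± 0.30 (SE), and the unadjusted limma p was 0.135. The site at 7.6 kb held 81 and 93 in WT and 97 and 39 in KO, with only KO replicate 2 low.

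Fgf2, a mitogen of fibroblasts, summed to 891 and 1093 in WT and 1135 and 921 in KO (fold 1.04, 0.798 to 1.34). A site 6.7 kb upstream held 44 and 77 in WT and 36 and 26 in KO, a log2 fold change of -0.91 ± 0.43 (SE) with an unadjusted limma p of 0.0762. A weak site at -23.9 kb went the other way, with 11 and 13 in WT and 23 and 23 in KO. These were the only 2 Fgf2 sites whose genotypes did not overlap. Sites 1.8 kb upstream (55 and 102 in WT, 113 and 80 in KO) and 9.0 kb into the gene (38 and 36 in WT, 70 and 18 in KO) varied between lines of 1 genotype.

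Fgf7, a mesenchymal ligand for epithelium, summed to 667 and 769 in WT and 856 and 640 in KO (fold 1.03, 0.776 to 1.38). None of its 7 sites separated the genotypes, and KO replicate 1 exceeded KO replicate 2 at 6 of them.

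Fgf10, which signals from mesenchyme to epithelium in limb and lung buds, summed to 283 and 341 in WT and 289 and 397 in KO (fold 1.09, 0.764 to 1.56). The +58.6 kb site held 25 and 30 in WT and 12 and 12 in KO; both KO lines were lower, by a log2 fold change of -1.13 ± 0.51 (SE), with an unadjusted limma p of 0.0671 at values well under the overall median of 52. The +31.9 kb site, which holds 2 AP-1 matches, held 15 and 36 in WT and 20 and 87 in KO, so that KO replicate 2 alone was high.

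Spry2, the inhibitor, summed to 780 and 563 in WT and 603 and 734 in KO (fold 1.00, 0.729 to 1.38). Its promoter held 263 and 182 in WT and 214 and 271 in KO. The upstream site at 2.0 kb held 250 and 181 in WT and 190 and 173 in KO. At both sites the WT lines differed by more than the genotype means did.

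**Figure D4:**
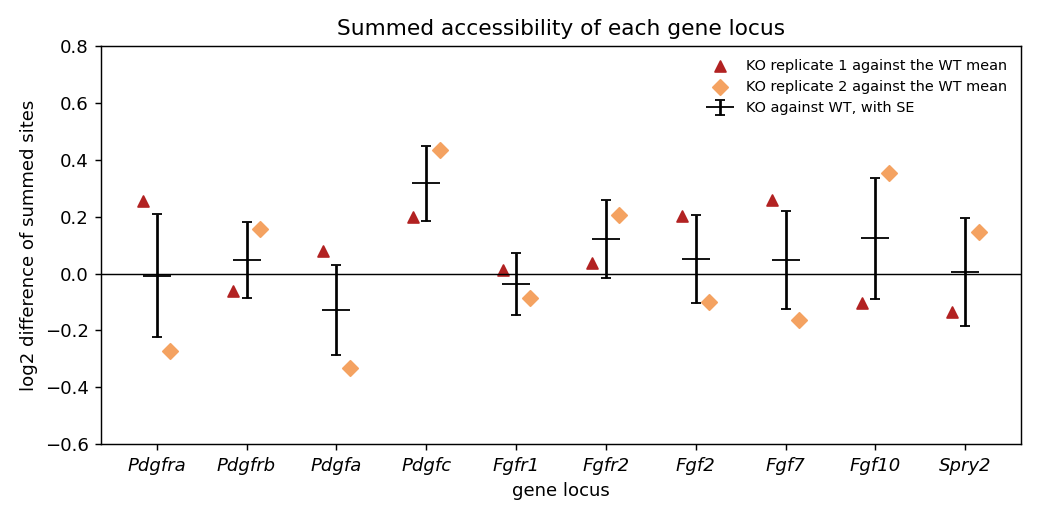
Log2 difference of the summed sites of each gene locus (vertical axis): black marks give KO against WT with its SE, triangles KO replicate 1 and diamonds KO replicate 2, each against the mean of the WT libraries. Both KO lines lie above 0 at Pdgfc and Fgfr2, and they lie on opposite sides of 0 at the other 8 genes.

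At the level of summed loci, the KO lines thus moved the same way, relative to the WT mean, only at Pdgfc (0.20 and 0.43, log2) and Fgfr2 (0.04 and 0.21). At the other 8 genes they moved in opposite directions. The share of all genes with both KO lines on the same side of the WT mean was not counted. Of 18267 genes tested as gene records, 0.257% were called lower and 0% higher, and none of the 10 genes was among them. At an unadjusted p under 0.05, where 1.75% of all genes were lower and 2.41% higher, none of the 10 passed either. The median log2 fold change of the 10 coding loci was 0.05, as it was over all genes.

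To see whether the genes lay in a wider region of lower or higher accessibility, the log2 fold change was averaged over the 25 sites nearest each start. The average was lowest around Pdgfra (-0.41 over 995 kb; -0.33 in KO replicate 1 and -0.49 in KO replicate 2), at the 6.11 percentile of all windows, although the 3 Pdgfra sites themselves had log2 fold changes of -0.11, -0.07 and 0.05. Over only the sites with a mean at or above the overall median, where the window reached further out, the average around Pdgfra was 0.03. It was highest around Pdgfc (0.26; 0.18 and 0.34 in the 2 KO lines), at the 96.2 percentile, and 15 of those 25 sites are the Pdgfc sites described above. Around Fgfr2 and Fgf10 the KO lines moved apart (-0.29 and 0.42, and -0.34 and 0.44). None of the 10 averages was under -0.58, a cutoff that 3.42% of all windows passed.

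The other 137 sites lay along the Fgfr2 gene record, which spans 2961 kb because 1 weakly supported transcript starts 2857 kb upstream of the coding start, at the start of Ctbp2, and the stretch holds 30 other protein-coding genes. Of these sites, 33 lay within 1 kb of the start of another gene. Both KO values lay below both WT values at 29 of them (21.2%, against 14.3% of all sites) and above at 12 (8.76%, against 14.6%). A single run of 25-site averages under -0.58 covered 492 kb around Gpr26, Cpxm2 and Chst15 (chr7:131882296-132374168). The run was picked for its low average, so the following is a description. Its 20 sites were weak, with a median value of 28.25 against 52 over all sites. All 20 had a log2 fold change below 0 and 13 had both KO values below both WT values, with a mean log2 fold change of -0.91 (-0.63 in KO replicate 1 and -1.20 in KO replicate 2); the WT lines differed there by -0.54 (WT replicate 1 against 2).

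Within this run, a site at the start of Chst15, a chondroitin sulfate sulfotransferase, held 163 and 174 in WT and 82 and 96 in KO. Its log2 fold change was -0.92 and its unadjusted limma p 0.0096. The site next to it held 192.5 ± 0.707 in WT and 105.5 ± 6.36 in KO (SD, n = 2 each). Both fell short of the fold needed for a call. The 3 other falls among the 5 largest of the 218 sites (at or above the overall median) lay in the same run, and in them the WT lines were far apart. The site at -1870.2 kb from the coding start held 93 and 179 in WT and 76 and 24 in KO (log2 fold change -1.57 ± 0.60, SE). The site at -1857.2 kb held 133 and 265 in WT and 125 and 51 in KO, and that at -1961.0 kb held 84 and 152 in WT and 57 and 45 in KO. Of the 5 largest rises, 3 lay in the extension: 26 and 61 in WT and 51 and 74 in KO at -683.2 kb, 372 and 257 in WT and 422 and 472 in KO at -568.3 kb, and 99 and 161 in WT and 169 and 180 in KO at -113.8 kb.

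**Figure D5:**
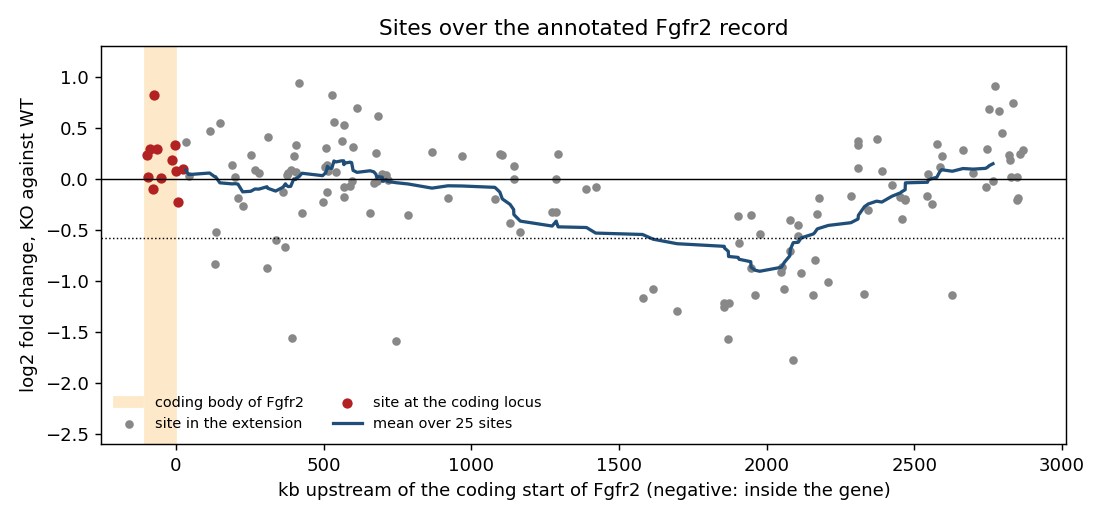
Log2 fold change, KO against WT, of the 149 sites over the Fgfr2 record (vertical axis) against the distance in kb upstream of the coding start, with the mean over 25 sites as a line; the coding body is shaded and the dotted line marks -0.58. The 12 coding-locus sites (red) lie between -0.23 and 0.82, and the mean falls under -0.58 only in 1 stretch far upstream.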

How the data were processed

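ATAC-Seq libraries from 4 immortalized MEF lines were grouped by the genotype label; the replicate numbers are names in accession order, with no pairing. Per the study's methods and the submitters' processing notes, the authors aligned reads to mm10 with BWA 0.7.12, called peaks with MACS2 2.1.0, merged them into regions and compared genotypes with DESeq2. The deposited values are a score: the authors scaled each read count by a factor per library and rounded it to whole numbers. Read filters and any shift for the Tn5 offset were not given in the sources used here. The same table holds the authors' raw and shrunken log2 fold changes, p-values and adjusted p-values, which were not used.

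Because the values are not raw counts, log2(value + 1) was tested over all 82325 sites with limma 3.58.1 (intensity trend, R 4.3.3), so fold changes of low sites are understated. Summed sites of 18267 protein-coding genes were tested the same way, and the coding loci in a separate fit over 18265 genes. The script was tested on simulated data. P-values rest only on the spread between these lines, and limma moves the variance of each site or gene toward a trend fitted over all. Depth was estimated from the steps of the scaled values, and no counting interval is given.

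Sites were given to genes by GENCODE gene records. Coding loci and promoter sites were defined from transcripts with a consensus coding sequence, after the site positions were seen. The reason was that 3 records (Pdgfra, Fgfr1, Fgf10) start away from any accessible site and that of Fgfr2 starts at Ctbp2. For Pdgfra the first coding start (chr5:75152306) lay beside the record start (chr5:75152292), and its promoter site was taken 4.5 kb further in. Motifs were searched in the central 300 bases of each site. The genes and lists were chosen with earlier results of these data known. Named sites are the strongest promoter and the strongest other site of each gene, the called sites and the 5 largest falls and rises among sites at or above the overall median; other named sites were chosen after their values were seen. Alternatives were another pseudocount, a filter on low values, 2 other scalings, no trend, other site assignments, other windows and leaving out each library.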

Additional observations from a re-analysis of the deposited data

How the results depend on the processing

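No paired analysis was possible because the labels give no replicate numbers; the line names of WT replicate 1 and KO replicate 2 begin with the same number, whose meaning the labels do not give, and the other lines share none. No site was called under any alternative that kept the call rule or required an adjusted p under 0.05. An unadjusted p under 0.05 gave 5 lower and 3 higher. With only sites at or above the overall median, which left 117 of the 218, both KO values were lower at 13 sites and higher at 10. With all 218 sites these counts were 36 and 23. At the coding loci, a setting added after seeing the data, they were 7 and 11 of 81. Apart from that setting, the alternatives for the Fgfr2 sum were run on its record (0.04), not on the coding locus (0.12). With 1 library left out, 51 to 80 of the 218 sites had both groups apart and KO lower, and 37 to 82 had KO higher. A lone library separates more easily. The shares over all sites were not counted under the filter or with 1 library left out. The median log2 fold change of all sites moved between -0.06 (equal totals) and 0.06 (sites at or above the median).

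Log2 fold changes near 0 changed sign. For summed genes, equal library totals gave -0.0206 for Pdgfrb, -0.0285 for Fgfr2 as a record, -0.0174 for Fgf2, -0.0209 for Fgf7 and -0.0628 for Spry2. Quantile normalization gave -0.0185 for Fgfr2 as a record, -0.0110 for Fgf2, -0.00551 for Fgf7 and -0.0620 for Spry2. Sites at or above the median gave 0.00963 for Pdgfra, starts of any transcript 0.0384 for Fgfr1, and sites over 1 kb from the start -0.0645 for Spry2. The Pdgfc sum kept its sign, at 0.25 with equal totals (unadjusted limma p 0.0953) and 0.25 with quantile normalization (p 0.0906). It was 0.29 with sites at or above the median (p 0.0988) and 0.32 without the trend (p 0.107). Starts of any transcript gave 0.32 (p 0.0483), and sites over 1 kb from the start 0.36 (p 0.0467). For sites, equal totals gave -0.0180 for Pdgfra +4.5 kb and -0.0305 for Pdgfrb +1.6 kb. Quantile normalization gave -0.0248 and -0.0147 for these, -0.0624 for Fgfr2 +0.5 kb and -0.00042 for Fgf7 -3.1 kb. The regional mean was 0.0274 (sites at or above the median) and -0.18 (51 sites) around Pdgfra, and -0.0939 (equal totals) around Pdgfrb. The cause of these changes was not tested.

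Leaving out 1 library turned the direction of every gene sum but Pdgfc (0.20 to 0.43). The ranges were -0.10 to 0.35 for Fgf10, -0.10 to 0.20 for Fgf2, -0.16 to 0.26 for Fgf7, -0.0848 to 0.0135 for Fgfr1, -0.10 to 0.18 for Fgfr2 as a record, -0.33 to 0.0788 for Pdgfa, -0.27 to 0.26 for Pdgfra, -0.0607 to 0.16 for Pdgfrb and -0.23 to 0.24 for Spry2. For sites they were -0.15 to 0.14 (Fgf10 +0.4 kb), -0.0562 to 0.54 (Fgf10 +22.1 kb), -0.10 to 0.78 (Fgf2 -1.8 kb), -0.17 to 0.14 (strongest Fgf2 intronic site), -0.38 to 0.51 (Fgf7 -0.1 kb), -0.0455 to 0.24 (Fgf7 -3.1 kb), -0.19 to 0.0551 (Fgfr1 +0.2 kb), -0.51 to 0.0490 (Fgfr2 -7.3 kb), -0.13 to 0.28 (Fgfr2 +0.5 kb), -0.37 to 0.69 (Pdgfa -0.3 kb), -0.30 to 0.0325 (Pdgfa +2.5 kb), -0.38 to 0.27 (Pdgfa +4.2 kb), -1.13 to 0.16 (Pdgfa +7.6 kb), -0.10 to 0.86 (Pdgfc -6.0 kb), -0.0797 to 0.51 (Pdgfc +0.4 kb), -0.31 to 0.0920 (Pdgfra -9.1 kb), -0.20 to 0.30 (Pdgfra +4.5 kb), -0.38 to 0.45 (Pdgfrb +1.6 kb), -0.13 to 0.40 (Spry2 -0.6 kb) and -0.46 to 0.0024 (Spry2 -2.0 kb). The unadjusted limma p of the Pdgfc sum ranged from 0.0269 (without KO replicate 1) to 0.278 (without WT replicate 1). The lone library of a genotype was assumed to vary like the other pair. With 2 lines per genotype and the fewest reads in KO replicate 2, small differences at single sites were not detectable.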

Other observations

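The wider pathway was read from a list of 58 other PDGF and FGF pathway genes (other ligands, receptors, adaptors, Sprouty and Dusp inhibitors and targets), of which 57 had at least 1 site and Spry3 had none. Of their 337 sites, 0 were called lower (0.302% of all sites) or higher (0.0705%), and 4 were lower and 7 higher at an unadjusted limma p under 0.05 (3.26%, against 3.13% of all sites). Both KO values lay below both WT values at 44 sites (13.1%, against 14.3%) and above at 63 (18.7%, against 14.6%). The median log2 fold change of the genes was 0.03.

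None of the 57 genes was called. At an unadjusted limma p under 0.05, 2 were lower and 1 was higher (over all 18267 genes 1.75% and 2.41%), and they are named here after their values were seen. Dusp4, a phosphatase that inactivates MAP kinases, summed to 772 and 756 in WT and 558 and 604 in KO (log2 fold change -0.40, unadjusted limma p 0.0144). Spry1, a relative of Spry2, summed to 376 and 316 in WT and 270 and 239 in KO (log2 fold change -0.44, unadjusted limma p 0.0492). Pdgfb, the ligand of both PDGF receptors, summed to 386 and 426 in WT and 551 and 523 in KO (log2 fold change 0.40, unadjusted limma p 0.0248). The Benjamini-Hochberg adjusted p of each of these genes was 0.906.

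Over the 81 sites, the SD of the log2 difference between 2 libraries was largest between the KO replicates (0.72) and smallest between WT replicate 2 and KO replicate 1 (0.49). Over all sites the KO replicates were also furthest apart (0.94).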
